A study of Danio rerio with 12 samples.

Results

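The 8 genes described here, gch2, pts, xdh, aox5, csf1ra, slc2a15a, pax7a and pax7b, act in xanthophores, the yellow pigment cells of zebrafish, or in the synthesis of their pteridine pigments. They were chosen by name, with earlier results for these libraries known, the lower gch2 level at 250 and 750 ng/mL among them. All 8 names were found among the 25099 gene names of the count table, and all 8 were among the 21581 genes counted deeply enough to be tested. Whole zebrafish larvae of the AB strain, whose tissue the labels call embryo, received 0, 250, 750 or 1295 ng/mL of the calcium channel blocker bepridil and were sampled at 120 hours post fertilization. Each dose had 3 libraries, and the RNA of each library came from 15 pooled larvae. When exposure began, how long it lasted and which carrier the 0 ng/mL group received are not stated in the labels used here. Whether the 3 libraries of a dose stem from different clutches is not in the labels either. The p-values below therefore rest on the spread among these libraries alone, part of which may be technical.

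Xanthophores arise from the neural crest and owe their colour to pteridines, made from GTP, and to carotenoids taken up from yolk and food. The pteridine route starts with GTP cyclohydrolase and shares its first steps with the synthesis of tetrahydrobiopterin, the cofactor of the enzymes that make dopamine, serotonin and nitric oxide. In zebrafish larvae xanthophores spread under the skin by the end of embryonic development, guided by the receptor csf1ra and specified by the transcription factors pax7a and pax7b.

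Libraries held 15571556 to 18284169 counts. Levels are given as CPM, each library's counts scaled to a common depth, after TMM scaling, a correction for differences in RNA composition between libraries, and are compared between doses of a gene, never between genes, because gene lengths were not used. The TMM factors were 0.8308 to 0.9055 in the 1295 ng/mL libraries and 1.011 to 1.075 in the others. Scaling by library totals alone therefore lowered fold changes at 1295 ng/mL: the median log2 fold change of all tested genes was -0.27 with totals alone and -0.02 with TMM. It also left 14.5% of the genes called against 0 ng/mL on the higher side, against 45.9% with TMM. At 250 ng/mL the share on the higher side was 57.4% with TMM and 45.8% with DESeq2. Single libraries stood apart from their groups. On the first principal component, which held 57.9% of the variance, 1295 ng/mL replicate 2 lay at -83.62, against -64.43 and -66.42. There 250 ng/mL replicate 3 lay at 48.48, against 34.29 and 36.72. On the second, which held 10.9%, 750 ng/mL replicate 3 lay at -39.56, while the other 750 ng/mL libraries lay at -7.309 and -2.085. Fold changes at 750 ng/mL of csf1ra, slc2a15a, pax7a and pax7b are given with and without it. Correlations between genes are given only with it.

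Because the genes were chosen on results from these dose contrasts, their levels and fold changes are given as a description, with no p-value. The lists of other genes below were also chosen with earlier results of these data known. Their counts and p-values are therefore descriptive too. Counts of the 8 past the threshold used for all genes are printed beside the share of all tested genes that passed it, and nothing is read from them. Where groups are said not to overlap, the share of all tested genes that did the same was not counted. Some genes that were not called also had groups without overlap. At 250 ng/mL, 0 of the 8 genes were called higher than at 0 ng/mL (adjusted p under 0.05, edgeR quasi-likelihood test) beside 6.03% of all tested genes, and 2 were called lower, gch2 and aox5, beside 4.48%. At 750 ng/mL, 0 were called higher beside 4.20% of all tested genes, and gch2 and aox5 were called lower beside 2.14%. At 1295 ng/mL, 2 were called higher, gch2 and pts, beside 18.8%, and 1 was called lower, pax7a, beside 22.2%. With library totals alone at 1295 ng/mL the gch2 and pts calls were lost and pax7a and pax7b were the 2 called lower. These 3 comparisons share the 0 ng/mL libraries. In RNA from whole larvae, fewer cells of a type and less RNA per cell cannot be told apart.

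The treated doses were also set against each other. Between 750 and 250 ng/mL none of the 8 genes and 0% of all tested genes were called by edgeR, with 1681 genes at an unadjusted p under 0.05, 5 genes called by DESeq2 and 0 by limma-voom. Between 1295 and 750 ng/mL, 4 of the 8 were called higher, gch2, pts, aox5 and slc2a15a, beside 23.4% of all tested genes, and 1 was called lower, pax7a, beside 28.7%. Scaled by totals, 3 were higher and 2 lower, since slc2a15a no longer passed and xdh did on the lower side. slc2a15a also did not pass with only the 2 compared groups or when 750 ng/mL replicate 3, 1295 ng/mL replicate 1 or 1295 ng/mL replicate 3 was dropped. The median log2 fold change of the 8 genes was -0.05 at 250, -0.27 at 750 and 0.19 at 1295 ng/mL against 0 ng/mL. The corresponding medians over all tested genes were 0.04, 0.02 and -0.02. Single libraries moved the median of the 8: at 750 ng/mL it was -0.10 once 750 ng/mL replicate 3 was dropped, or -0.40 once 750 ng/mL replicate 1 was, and at 250 ng/mL it lay between -0.10 and -0.02 over the fits that left out 1 library, the lower end on dropping 750 ng/mL replicate 3 or 1295 ng/mL replicate 2, the upper end on dropping 250 ng/mL replicate 2. At 1295 ng/mL it was -0.069 with library totals alone, beside -0.27 over all tested genes in that fit.

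**Figure D1:**
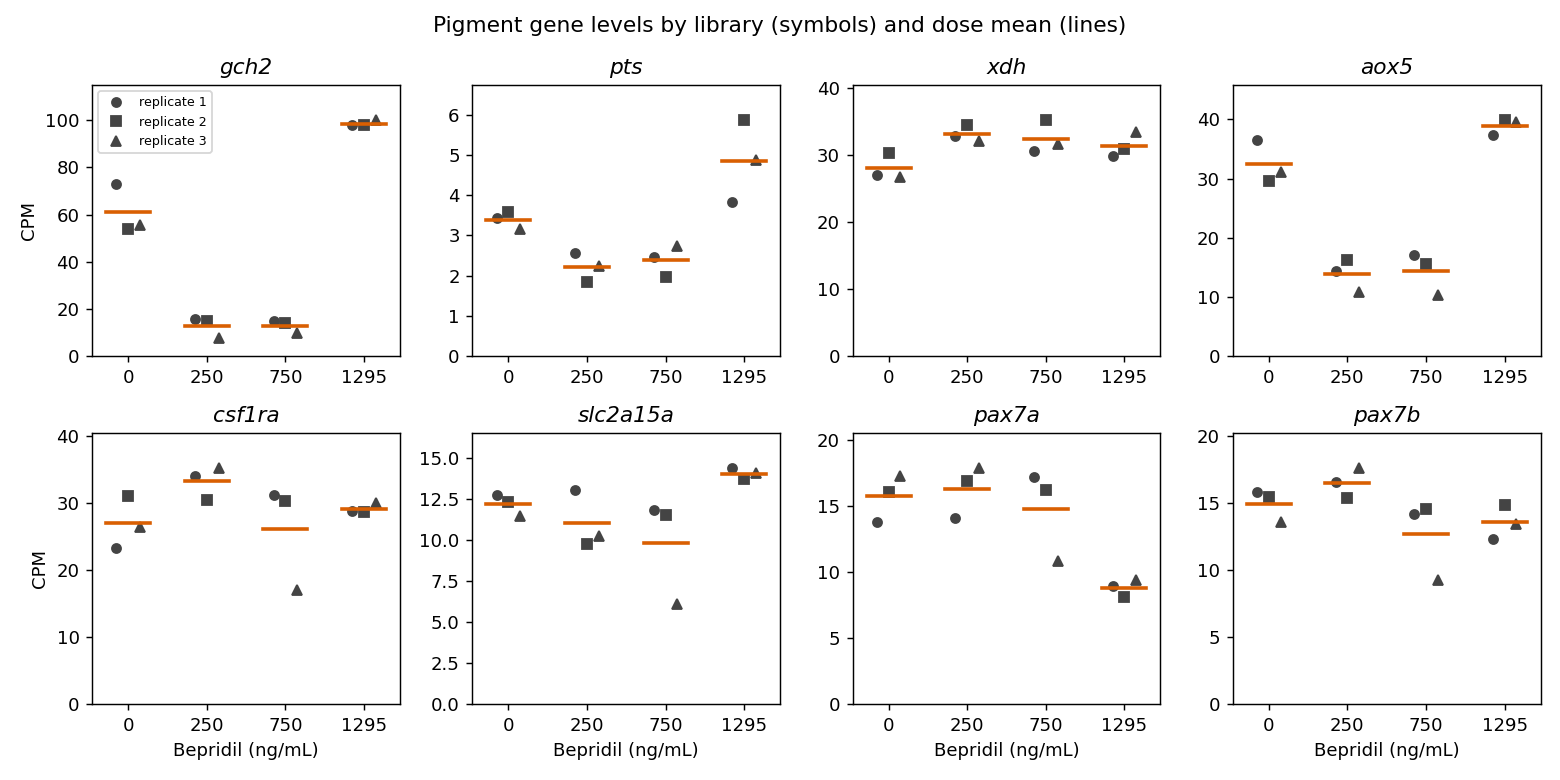
Level of each of the 8 genes (CPM after TMM scaling, linear axis from 0) at each bepridil dose in ng/mL; a symbol is a library of 15 pooled larvae and a line is the mean of the 3 libraries. gch2 and aox5 were lowest at 250 and 750 ng/mL, pax7a was lowest at 1295 ng/mL, and the triangle at 750 ng/mL, replicate 3, was low for csf1ra, slc2a15a, pax7a and pax7b.

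The enzyme at the head of the pteridine route showed the widest range of the 8 genes. gch2, a GTP cyclohydrolase gene used by pigment cells, had 73.1, 54.0 and 55.6 CPM at 0 ng/mL, 15.8, 15.1 and 7.55 CPM at 250 ng/mL, 14.7, 14.1 and 10.04 CPM at 750 ng/mL, and 98.0, 97.8 and 99.9 CPM at 1295 ng/mL. Every library at 250 and 750 ng/mL lay below every 0 ng/mL library, every 1295 ng/mL library lay above them, and the 250 and 750 ng/mL libraries overlapped. The group means were 60.9 ± 10.6, 12.8 ± 4.56, 13.0 ± 2.55 and 98.6 ± 1.21 CPM in that order of dose (SD, n = 3 each), so the means at 250 and 750 ng/mL were 21.0% and 21.3% of the 0 ng/mL mean. The log2 fold change against 0 ng/mL was -2.25 ± 0.21 (SE) at 250 ng/mL, -2.23 ± 0.21 at 750 ng/mL and 0.69 ± 0.20 at 1295 ng/mL. Between 1295 and 750 ng/mL it was 2.92 ± 0.22.

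Over 20 alternative settings gch2 ranged between -2.44 and -1.98 at 250 ng/mL and between -2.33 and -2.08 at 750 ng/mL. At 1295 ng/mL gch2 ranged between 0.44 and 0.85, and its call was lost with library totals alone and when 0 ng/mL replicate 3 was dropped.

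pts encodes 6-pyruvoyltetrahydropterin synthase, the enzyme after GTP cyclohydrolase in the route. It was thinly counted, with 30 to 89 counts per library, so that counting error alone came to 18.3% of the lowest value. Its levels were 3.43, 3.58 and 3.15 CPM at 0 ng/mL, 2.57, 1.85 and 2.24 CPM at 250 ng/mL, 2.48, 1.97 and 2.74 CPM at 750 ng/mL, and 3.84, 5.86 and 4.88 CPM at 1295 ng/mL. The order of the groups was that of gch2, with every 250 and 750 ng/mL library below and every 1295 ng/mL library above the 0 ng/mL libraries. The log2 fold change of pts against 0 ng/mL was -0.60 ± 0.21 at 250 ng/mL, -0.50 ± 0.21 at 750 ng/mL and 0.52 ± 0.20 at 1295 ng/mL (SE). pts was called lower at 250 ng/mL only when 750 ng/mL replicate 3 or 1295 ng/mL replicate 2 was left out. Its call at 1295 ng/mL was lost with DESeq2, with a replicate block, with library totals alone (0.26), with only the 2 compared groups in the fit and in several fits that left out 1 library.

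The oxidases split. aox5, an aldehyde oxidase gene used as a xanthophore marker in zebrafish, had 36.4, 29.5 and 31.1 CPM at 0 ng/mL, 14.4, 16.2 and 10.9 CPM at 250 ng/mL, 17.04, 15.6 and 10.3 CPM at 750 ng/mL, and 37.4, 39.8 and 39.5 CPM at 1295 ng/mL. Its groups had the same order as those of gch2, with no overlap between treated and 0 ng/mL libraries and an overlap between 250 and 750 ng/mL. The means at 250 and 750 ng/mL were 42.7% and 44.2% of the aox5 mean at 0 ng/mL. The log2 fold change of aox5 was -1.23 ± 0.17 at 250 ng/mL, -1.18 ± 0.17 at 750 ng/mL and 0.27 ± 0.16 at 1295 ng/mL (SE). The aox5 value at 1295 ng/mL was 0.01 with library totals alone.

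xdh encodes xanthine dehydrogenase, which acts on pterins in pigment cells and elsewhere on purines on their way to urate. It had 27.0, 30.3 and 26.6 CPM at 0 ng/mL, 32.8, 34.5 and 32.1 CPM at 250 ng/mL, 30.5, 35.1 and 31.6 CPM at 750 ng/mL, and 29.8, 30.9 and 33.4 CPM at 1295 ng/mL. The 250 and 750 ng/mL libraries lay just above the 0 ng/mL libraries, without overlap, and the 1295 ng/mL libraries overlapped them. The log2 fold changes of xdh were 0.24 ± 0.10, 0.21 ± 0.10 and 0.16 ± 0.10 (SE) at 250, 750 and 1295 ng/mL. With library totals alone the xdh value at 1295 ng/mL was -0.09. In the RefSeq gene table, xdh is also listed as an older symbol of aox5. The count table holds a row for each name, and which locus each row counted was not checked here.

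**Figure D2:**
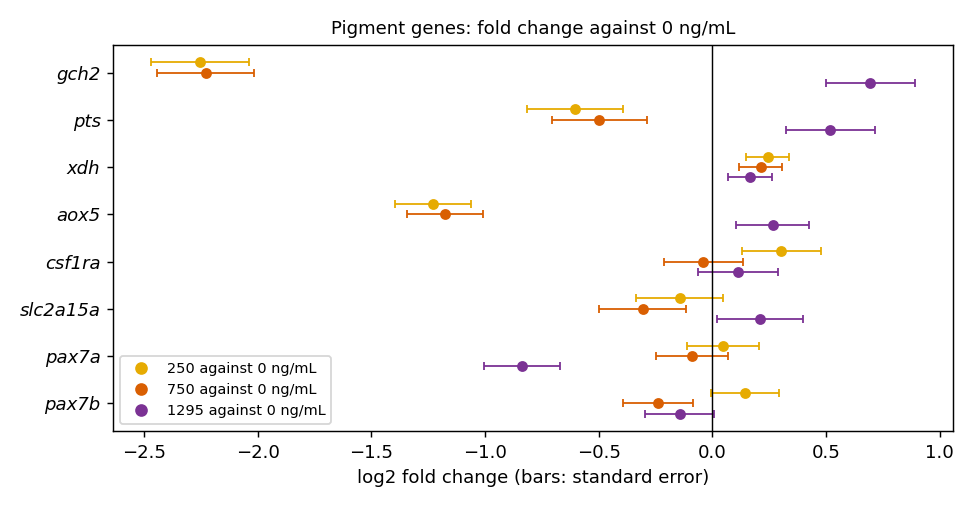
Log2 fold change of the 8 genes against 0 ng/mL (points) with standard errors (bars) at 250, 750 and 1295 ng/mL. gch2 lay near -2.25 and aox5 near -1.2 at the lower doses, gch2 at 0.69 at 1295 ng/mL, and pax7a at -0.84 there; with library totals alone the values of xdh, csf1ra and slc2a15a at 1295 ng/mL changed sign.

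The receptor gene had overlapping groups at every dose. csf1ra, the receptor tyrosine kinase gene of the panther mutant, is needed for larval xanthophores and is also expressed in macrophages. It had 23.3, 31.0 and 26.5 CPM at 0 ng/mL, 34.04, 30.4 and 35.1 CPM at 250 ng/mL, 31.1, 30.3 and 17.04 CPM at 750 ng/mL, and 28.7, 28.7 and 29.9 CPM at 1295 ng/mL. All 3 treated groups overlapped the 0 ng/mL group, and the lowest library of the 12 was 750 ng/mL replicate 3. On the log2 scale csf1ra differed from 0 ng/mL by 0.30 ± 0.17 at 250 ng/mL, -0.04 ± 0.18 at 750 ng/mL and 0.11 ± 0.18 at 1295 ng/mL (SE). Without 750 ng/mL replicate 3 the csf1ra value at 750 ng/mL was 0.15, and with library totals alone its value at 1295 ng/mL was -0.14.

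Macrophage genes, set beside csf1ra, were called higher most often at the highest dose, as were all tested genes. Of 23 macrophage and microglia genes, 2 were called higher and 0 lower at 250 ng/mL, 4 and 0 at 750 ng/mL, and 14 and 0 at 1295 ng/mL. Of all tested genes, 6.03%, 4.20% and 18.8% were called higher and 4.48%, 2.14% and 22.2% lower at those doses. Scaled by totals, 9 were higher and 1 lower at 1295 ng/mL. Their summed level was 1134 to 1468 CPM at 0 ng/mL, 1241 to 1446 CPM at 250 ng/mL, 1318 to 1341 CPM at 750 ng/mL and 2682 to 3348 CPM at 1295 ng/mL, and no gene of the list was at 0 in any library. Most of that sum was 1 gene, apoeb, with 2387 to 3098 CPM at 1295 ng/mL and 963.9 to 1290 CPM at 0 ng/mL. The other 22 genes summed to 249.8 to 294.6 CPM at 1295 ng/mL and 153.9 to 177.9 CPM at 0 ng/mL. Among the 23, apoeb, an apolipoprotein E gene of microglia and other cells, rose by 1.39 ± 0.13 (log2, SE; adjusted p = 6.47e-06, edgeR quasi-likelihood test). The other examples were ctss2.1, a cathepsin gene, with 1.22 ± 0.14 (adjusted p = 2.49e-05), and mpeg1.2, a perforin-like gene of macrophages, with 1.28 ± 0.19 (adjusted p = 0.00016). The part of macrophages in the csf1ra level was not tested. csf1rb, the second copy of the receptor gene, was not called at any dose, and reads could have been split between such near copies.

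The ligands of the receptor were called at 1295 ng/mL. csf1a had 9.72, 7.24 and 10.01 CPM at 1295 ng/mL, against 4.74, 6.25 and 5.63 CPM at 0 ng/mL, and rose by 0.70 ± 0.16 (log2, SE; adjusted p = 0.00278, edgeR quasi-likelihood test). csf1b rose by 0.67 ± 0.16 (adjusted p = 0.00498) and il34, another ligand, by 1.06 ± 0.18 (adjusted p = 0.000346). For each of the 3 ligand genes all 1295 ng/mL libraries lay above all 0 ng/mL libraries, a separation that was not counted over all tested genes. None of the 3 was called at 250 or 750 ng/mL. Across all tested genes, 18.8% were called higher at 1295 ng/mL, and 10.5% and 6.33% were called in either direction at 250 and 750 ng/mL.

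slc2a15a belongs to the glucose transporter family, and its near copy slc2a15b is known in medaka as a gene needed for pigment cells of the yellow and white lineages. slc2a15a had 12.7, 12.3 and 11.4 CPM at 0 ng/mL, 13.0, 9.76 and 10.2 CPM at 250 ng/mL, 11.8, 11.6 and 6.09 CPM at 750 ng/mL, and 14.4, 13.7 and 14.1 CPM at 1295 ng/mL. The groups at 250 and 750 ng/mL overlapped the 0 ng/mL group and the 1295 ng/mL libraries lay just above it. The slc2a15a log2 fold change was -0.14 ± 0.19, -0.31 ± 0.19 and 0.21 ± 0.19 (SE) at 250, 750 and 1295 ng/mL. Without 750 ng/mL replicate 3 the value at 750 ng/mL was -0.10, and with library totals alone the value at 1295 ng/mL was -0.05. Between 1295 and 750 ng/mL slc2a15a differed by 0.52 ± 0.19. The difference was 0.31 when 750 ng/mL replicate 3 was dropped and 0.28 with library totals alone. slc2a15b was not called, with 0.36 ± 0.15 (SE, adjusted p = 0.0661, edgeR quasi-likelihood test) at 1295 ng/mL.

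The paired-domain transcription factors parted at the highest dose. pax7a and pax7b specify xanthophores in the neural crest and are also expressed in muscle progenitors and in the dorsal brain. pax7a had 13.8, 16.1 and 17.3 CPM at 0 ng/mL, 14.1, 16.9 and 17.8 CPM at 250 ng/mL, 17.2, 16.2 and 10.8 CPM at 750 ng/mL, and 8.91, 8.10 and 9.39 CPM at 1295 ng/mL. The 250 and 750 ng/mL groups overlapped the 0 ng/mL group, and every 1295 ng/mL library lay below every other library. The log2 fold change of pax7a was 0.05 ± 0.16, -0.09 ± 0.16 and -0.84 ± 0.17 (SE) at 250, 750 and 1295 ng/mL. Its value at 1295 ng/mL ranged between -1.09 and -0.76 over 20 alternative settings.

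pax7b had 15.9, 15.5 and 13.6 CPM at 0 ng/mL, 16.6, 15.4 and 17.6 CPM at 250 ng/mL, 14.2, 14.6 and 9.25 CPM at 750 ng/mL, and 12.4, 14.9 and 13.5 CPM at 1295 ng/mL. All treated groups overlapped the 0 ng/mL group. pax7b had a log2 fold change of 0.14 ± 0.15, -0.24 ± 0.15 and -0.14 ± 0.15 (SE) at 250, 750 and 1295 ng/mL, and -0.40 at 1295 ng/mL with library totals alone. Without 750 ng/mL replicate 3 the values at 750 ng/mL were 0.05 for pax7a and -0.10 for pax7b. The 2 genes are near copies, so reads could have been split between them.

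Genes of other tissues that express pax7a and pax7b were counted in the same libraries. Of 14 dorsal brain genes, none was called at 250 or 750 ng/mL (edgeR), beside 10.5% and 6.33% of all tested genes called in either direction. At 1295 ng/mL 0 were called higher and 4 lower, beside 18.8% of all tested genes called higher and 22.2% called lower. Scaled by totals, 9 were lower. sox14 fell by 0.66 ± 0.14 (log2, SE; adjusted p = 0.00153, edgeR quasi-likelihood test), en2a, a midbrain-hindbrain gene, fell by 0.67 ± 0.16 (adjusted p = 0.0042), and tfap2b fell by 0.39 ± 0.12 (adjusted p = 0.0206). The tfap2b call did not survive dropping replicate 1 or 3 at 0 ng/mL or replicate 1 or 2 at 1295 ng/mL. The summed level of the 14 was 345.1 to 403.5 CPM at 1295 ng/mL and 353.1 to 527.6 CPM at 0 ng/mL. No gene of the list was at 0 in any library.

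Of 15 muscle progenitor and myogenic genes, 1 was called higher, myf6, a myogenic regulator, and 0 lower at 250 and at 750 ng/mL. The shares of all tested genes called in either direction were 10.5% and 6.33% at these doses. The myf6 call was lost in 4 of 20 alternative settings at 250 ng/mL, each leaving out 1 library, and in 16 of 20 at 750 ng/mL, RLE scaling, library totals alone and a replicate block among them. At 1295 ng/mL 7 were called higher and 1 lower, beside 18.8% and 22.2% of all tested genes. With library totals alone 2 were called higher and 4 lower there. At 1295 ng/mL myf5, which acts early in muscle formation, rose by 0.77 ± 0.16 (log2, SE; adjusted p = 0.00172, edgeR quasi-likelihood test) and myf6 by 0.76 ± 0.17 (adjusted p = 0.00211). six1b rose by 0.47 ± 0.10 (adjusted p = 0.00164), a call lost with library totals alone. The summed level was 276.0 to 300.5 CPM at 1295 ng/mL and 243.2 to 268.5 CPM at 0 ng/mL, and no gene was at 0. The part of either tissue in the pax7a and pax7b levels was not tested.

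Other enzymes of pterin and tetrahydrobiopterin metabolism were measured beside gch2 and pts. Of 11 listed, 9 were tested, 1 (pcbd2) was not found and 1 (qdprb2) was too thinly counted. At 250 ng/mL 2 of the 9 were called higher and 1 lower, beside 10.5% of all tested genes called in either direction. At 750 ng/mL 2 were called higher and 0 lower, beside 6.33%, and at 1295 ng/mL 1 higher and 0 lower, beside 41.0%. The median log2 fold change of the 9 was 0.07, -0.05 and 0.30 at 250, 750 and 1295 ng/mL. Setting 1295 against 750 ng/mL, 4 were called higher and 2 lower, beside 52.1% of all tested genes.

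gchfr encodes the protein through which GTP cyclohydrolase is held back by its end product in mammals. It had 6.51, 10.01 and 8.62 CPM at 0 ng/mL, 13.2, 14.4 and 11.6 CPM at 250 ng/mL, 11.9, 13.0 and 15.3 CPM at 750 ng/mL, and 10.1, 10.8 and 10.01 CPM at 1295 ng/mL. The 250 and 750 ng/mL libraries lay above all 0 ng/mL libraries. gchfr rose by 0.64 ± 0.15 (log2, SE) at 250 ng/mL (adjusted p = 0.017) and by 0.68 ± 0.15 at 750 ng/mL (adjusted p = 0.0164, edgeR quasi-likelihood test). Both calls were lost without 0 ng/mL replicate 1, where the values were 0.49 and 0.52. The first was also lost without 250 ng/mL replicate 2, and the second without 750 ng/mL replicate 3 and with only the 2 compared groups. akr1b1.1, an aldose reductase gene, rose by 0.79 ± 0.15 at 250 ng/mL (adjusted p = 0.00473) and by 0.85 ± 0.15 at 750 ng/mL (adjusted p = 0.00387).

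Sepiapterin reductase, the enzyme after pts, has a pair of genes. spra had 8.02, 6.92 and 6.32 CPM at 250 ng/mL, against 10.2, 9.46 and 9.74 CPM at 0 ng/mL, and fell by 0.47 ± 0.13 (log2, SE; adjusted p = 0.0344, edgeR quasi-likelihood test). With a replicate block the adjusted p of spra at 250 ng/mL was 0.0574, and the call was also lost without any one of 0 ng/mL replicates 1, 2 and 3 or 250 ng/mL replicates 2 and 3. sprb was not called, with 1.07 ± 0.38 at 250 ng/mL (adjusted p = 0.0836), and gch1, the other GTP cyclohydrolase gene, was not called at any dose, with 0.23 ± 0.21 at 250 ng/mL and -0.22 ± 0.22 at 1295 ng/mL. pcbd1, which recycles the tetrahydrobiopterin cofactor, had 61.7, 65.4 and 62.8 CPM at 1295 ng/mL, against 32.0, 35.4 and 30.1 CPM at 0 ng/mL. It rose by 0.96 ± 0.10 (adjusted p = 9.56e-06) and was not called at 250 or 750 ng/mL.

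Enzymes and neurons that use tetrahydrobiopterin were called mostly lower at the highest dose. Of 17 tested genes of this kind, 1 was called higher and 0 lower at 250 ng/mL, 1 and 1 at 750 ng/mL, and 2 and 9 at 1295 ng/mL (1 and 11 with library totals alone). Over all tested genes with TMM, 6.03%, 4.20% and 18.8% were called higher and 4.48%, 2.14% and 22.2% lower. th, tyrosine hydroxylase of dopamine synthesis, had 3.22, 3.55 and 2.96 CPM at 1295 ng/mL, against 8.17, 5.15 and 6.70 CPM at 0 ng/mL, and fell by 1.04 ± 0.18 (log2, SE; adjusted p = 0.000483, edgeR quasi-likelihood test). ddc, the decarboxylase that follows it, fell by 0.95 ± 0.18 (adjusted p = 0.000981). The higher pair at 1295 ng/mL was pcbd1, held by both lists, and pah, phenylalanine hydroxylase, chosen after its value of 0.47 ± 0.13 was seen.

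Among genes that build purines, the source of GTP, those called had 1 direction at each dose. Of 17 tested genes of purine synthesis and salvage, 0 were called higher and 9 lower at 250 ng/mL, 0 and 7 at 750 ng/mL, and 11 and 0 at 1295 ng/mL. The shares of all tested genes called higher were 6.03%, 4.20% and 18.8%, and those called lower 4.48%, 2.14% and 22.2%. With library totals alone the counts at 1295 ng/mL were 6 higher and 1 lower. The median log2 fold change of the 17 was -0.30, -0.26 and 0.38 at 250, 750 and 1295 ng/mL, beside 0.04, 0.02 and -0.02 over all tested genes. Without 250 ng/mL replicate 3, 5 were called at 250 ng/mL, and without 0 ng/mL replicate 1 or 750 ng/mL replicate 1, 4 were called at 750 ng/mL.

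paics, which joins and carboxylates an intermediate of the purine ring, had 131, 141 and 126 CPM at 0 ng/mL, 91.5, 62.8 and 51.2 CPM at 250 ng/mL, 66.4, 85.2 and 66.2 CPM at 750 ng/mL, and 306, 258 and 299 CPM at 1295 ng/mL. All 250 and 750 ng/mL libraries lay below the 0 ng/mL libraries and all 1295 ng/mL libraries above them. The paics log2 fold change was -0.96 ± 0.17 (SE, adjusted p = 0.00224), -0.87 ± 0.17 (adjusted p = 0.00563) and 1.12 ± 0.17 (adjusted p = 0.000149, edgeR quasi-likelihood test) at 250, 750 and 1295 ng/mL. For atic, the enzyme that closes the ring, the log2 fold changes were -0.78 ± 0.11 (adjusted p = 0.000552), -0.67 ± 0.11 (adjusted p = 0.00231) and 0.94 ± 0.11 (adjusted p = 2.68e-05). For pfas, an earlier enzyme, they were -0.53 ± 0.10 (adjusted p = 0.00499), -0.63 ± 0.10 (adjusted p = 0.00236) and 0.83 ± 0.10 (adjusted p = 3.58e-05). The calls of paics, atic and pfas held in every alternative setting run.

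**Figure D3:**
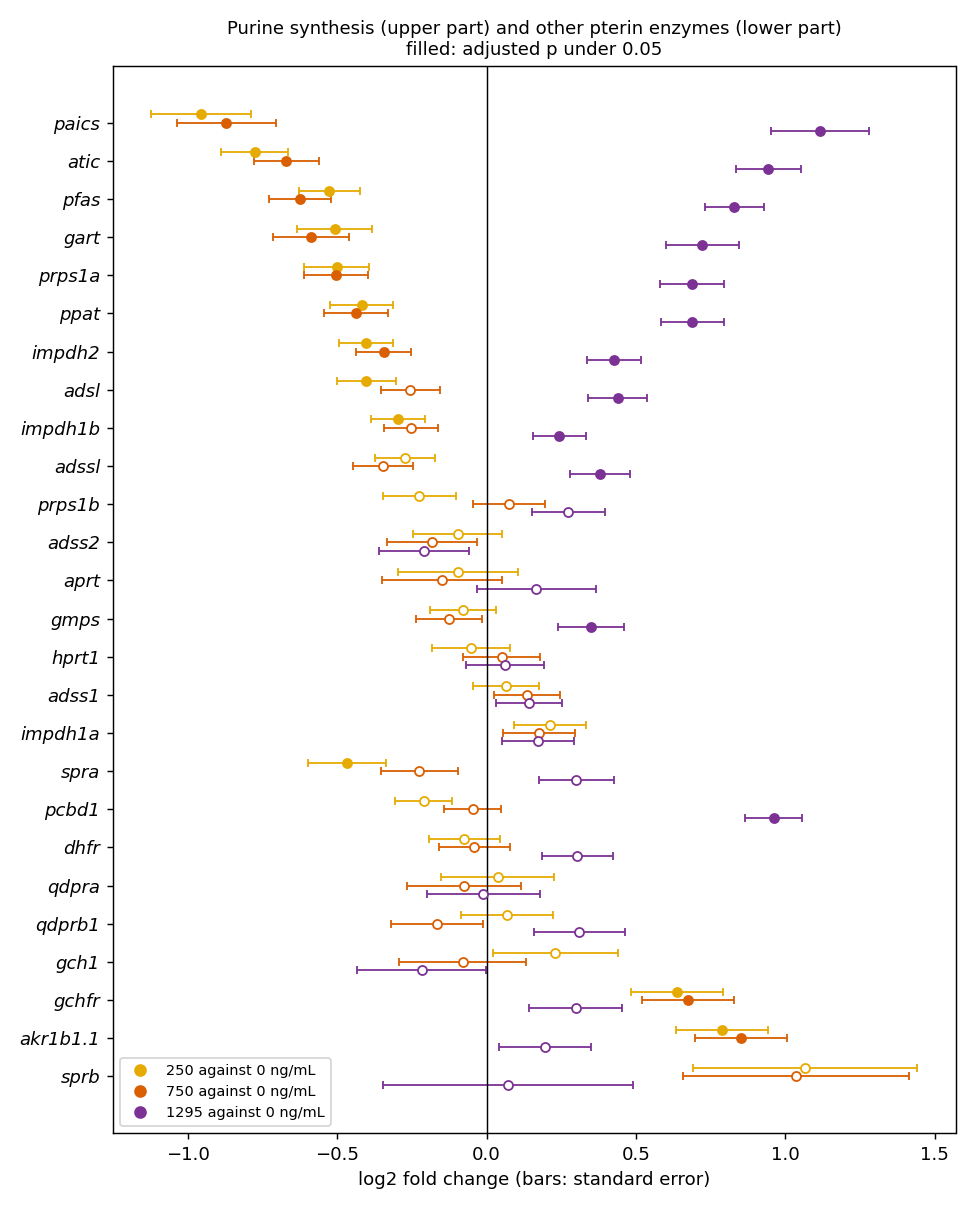
Log2 fold change against 0 ng/mL (points) with standard errors (bars) of 17 purine synthesis genes and 9 other pterin enzymes at 250, 750 and 1295 ng/mL; filled points have an adjusted p under 0.05 (edgeR quasi-likelihood test). Of the purine genes, 9 and 7 were called lower at 250 and 750 ng/mL and 11 higher at 1295 ng/mL (6 higher and 1 lower with library totals alone), while 1 to 3 pterin enzymes were called at each dose. Of all tested genes, 10.5%, 6.33% and 41.0% were called in either direction at the 3 doses with TMM.

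The genes of purine breakdown and the molybdenum cofactor, which xdh and aox5 proteins carry, gave other counts. Of 16 tested, 5 were called higher and 0 lower at 250 ng/mL, 5 and 0 at 750 ng/mL, and 2 and 2 at 1295 ng/mL (0 and 9 with library totals alone). With TMM, 10.5%, 6.33% and 41.0% of all tested genes were called in either direction at these doses. The 5 at 250 ng/mL were gda, ada, allc, pnp4b and mocs1, named after their values were seen. gda, guanine deaminase, rose by 1.40 ± 0.23 (log2, SE; adjusted p = 0.00153, edgeR quasi-likelihood test) and ada, adenosine deaminase, by 0.96 ± 0.17 (adjusted p = 0.00256). pnp4b, a purine nucleoside phosphorylase gene, was higher by 0.80 ± 0.15 at 250 ng/mL (adjusted p = 0.00375), 0.94 ± 0.15 at 750 ng/mL (adjusted p = 0.00193) and 0.56 ± 0.15 at 1295 ng/mL (adjusted p = 0.00845), a call lost there with library totals alone. Another gene of this family, pnp6, fell by 0.64 ± 0.12 at 1295 ng/mL (adjusted p = 0.00109), and pnp5a rose by 0.49 ± 0.13 there (adjusted p = 0.0087). pnp5a did not pass with library totals alone (0.23) or when 0 ng/mL replicate 3 was dropped (0.38).

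Genes of the xanthophore and carotenoid list were called in both directions at every dose. The list also holds the ligand genes csf1a, csf1b and il34, and pigment genes such as kcnj13 and gpr143. Its counts are therefore not of xanthophore genes alone. Of 25 tested, 5 were called higher and 4 lower at 250 ng/mL, 4 and 4 at 750 ng/mL, and 8 and 3 at 1295 ng/mL. Beside these counts, 10.5%, 6.33% and 41.0% of all tested genes were called in either direction. With library totals alone the counts at 1295 ng/mL were 4 higher and 10 lower, and without 0 ng/mL replicate 3, 7 were called there in all. The median log2 fold change of the 25 was -0.03, -0.01 and -0.09 at the 3 doses. Setting 1295 against 750 ng/mL, 10 were called higher and 9 lower, beside 23.4% and 28.7% of all tested genes.

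The 4 genes called lower at 250 ng/mL were slc22a7a, slc2a11b, bscl2l and plin6. slc2a11b, a transporter gene known from medaka to be needed for pigment cells of the yellow and white lineages, had 25.1, 23.1 and 23.1 CPM at 0 ng/mL, 13.6, 13.3 and 8.84 CPM at 250 ng/mL, 14.1, 12.1 and 11.6 CPM at 750 ng/mL, and 30.4, 36.3 and 30.6 CPM at 1295 ng/mL. All libraries at 250 and 750 ng/mL lay below the 0 ng/mL libraries and all at 1295 ng/mL lay above them. The slc2a11b log2 fold change was -1.001 ± 0.15 (SE, adjusted p = 0.000649) at 250 ng/mL, -0.91 ± 0.15 (adjusted p = 0.00186) at 750 ng/mL and 0.45 ± 0.14 (adjusted p = 0.0184, edgeR quasi-likelihood test) at 1295 ng/mL. The slc2a11b call at 1295 ng/mL was lost with library totals alone (0.19), and when 0 ng/mL replicate 3 or 1295 ng/mL replicate 2 was dropped.

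slc22a7a, a solute carrier gene, had 31.1, 33.6 and 30.4 CPM at 0 ng/mL, 17.9, 15.9 and 12.5 CPM at 250 ng/mL, 18.7, 18.4 and 17.3 CPM at 750 ng/mL, and 40.0, 53.5 and 44.0 CPM at 1295 ng/mL. No treated library overlapped the 0 ng/mL group. The slc22a7a log2 fold change was -1.04 ± 0.13 (SE, adjusted p = 0.000269) at 250 ng/mL, -0.81 ± 0.13 (adjusted p = 0.00231) at 750 ng/mL and 0.53 ± 0.13 (adjusted p = 0.00426, edgeR quasi-likelihood test) at 1295 ng/mL, the last lost with library totals alone (0.27). For bscl2l, of the seipin family, the log2 fold changes were -0.82 ± 0.15 (adjusted p = 0.0026), -0.89 ± 0.15 (adjusted p = 0.00231) and 0.69 ± 0.14 (adjusted p = 0.00118), and the calls held in every setting run. plin6, a perilipin gene of xanthophore lipid droplets, had 12.7, 12.7 and 10.5 CPM at 0 ng/mL, 7.12, 7.41 and 8.11 CPM at 250 ng/mL, 6.33, 8.98 and 4.87 CPM at 750 ng/mL, and 17.3, 17.4 and 15.9 CPM at 1295 ng/mL. Its calls depended more on single libraries: at 250 ng/mL (-0.67 ± 0.17, adjusted p = 0.0242) the call was lost in 5 fits that each left out a 0 ng/mL replicate (1 or 2) or a 250 ng/mL replicate (1, 2 or 3), at 750 ng/mL (-0.83 ± 0.17, adjusted p = 0.00988) with only the 2 compared groups, and at 1295 ng/mL (adjusted p = 0.026) with library totals alone and without 0 ng/mL replicate 3 or 1295 ng/mL replicate 1 or 2.

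The genes called higher at 250 ng/mL were of carotenoid and retinoid handling. bco2l, of the carotenoid-cleaving oxygenase family, had 4.63, 4.73 and 4.05 CPM at 0 ng/mL, 9.15, 7.23 and 9.40 CPM at 250 ng/mL, 9.96, 8.68 and 8.03 CPM at 750 ng/mL, and 3.53, 4.28 and 4.08 CPM at 1295 ng/mL. The 250 and 750 ng/mL libraries stood clear above the others. The bco2l log2 fold change was 0.94 ± 0.15 (SE, adjusted p = 0.00142) at 250 ng/mL and 0.99 ± 0.15 (adjusted p = 0.00148, edgeR quasi-likelihood test) at 750 ng/mL. For scarb1, a receptor that takes up carotenoids and lipoprotein lipids, the log2 fold changes were 0.61 ± 0.12 (adjusted p = 0.00528) and 0.56 ± 0.12 (adjusted p = 0.0124), the second lost without 0 ng/mL replicate 1 or 750 ng/mL replicate 3. bco1l rose by 0.90 ± 0.27 (adjusted p = 0.0425) and 1.17 ± 0.27 (adjusted p = 0.0161). The bco1l calls were lost in 9 and 4 of 20 settings at 250 and 750 ng/mL.

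bco2a rose at 250 ng/mL by 0.68 ± 0.16 (log2, SE; adjusted p = 0.0141, edgeR quasi-likelihood test), which did not pass when 0 ng/mL replicate 1 or 250 ng/mL replicate 3 was dropped. rbp4l, a retinol-binding protein gene, rose by 0.996 ± 0.17 at 250 ng/mL (adjusted p = 0.00222) and by 1.03 ± 0.17 at 750 ng/mL (adjusted p = 0.00254). At 1295 ng/mL it fell by 0.55 ± 0.17 (adjusted p = 0.0213), and did not pass when 0 ng/mL replicate 3 (-0.32) or 1295 ng/mL replicate 2 (-0.38) was dropped. Carotenoid genes also act in the intestine, and 10 of 15 intestine genes were called higher and 1 lower at 250 ng/mL, 9 and 1 at 750 ng/mL, and 4 and 7 at 1295 ng/mL (3 and 8 with library totals alone). Among all tested genes, 10.5%, 6.33% and 41.0% were called in either direction with TMM. chia.1, a chitinase gene, rose by 2.22 ± 0.17 at 250 ng/mL (adjusted p = 7.67e-06) and by 1.99 ± 0.17 at 750 ng/mL (adjusted p = 3.92e-05), and fell by 1.31 ± 0.17 at 1295 ng/mL (adjusted p = 6.53e-05). The summed level of the intestine list was 4572 to 5760 CPM at 0 ng/mL, 4026 to 5244 CPM at 250 ng/mL, 4758 to 5315 CPM at 750 ng/mL and 9388 to 10540 CPM at 1295 ng/mL, and no gene of the list was at 0. apoa1a, an apolipoprotein gene, held 3075 to 3689 CPM of it at 0 ng/mL and 7403 to 8318 CPM at 1295 ng/mL. It held 1491 to 2177 CPM at 250 ng/mL and 2000 to 2507 CPM at 750 ng/mL. The other 14 genes summed to 1498 to 2106 CPM at 0 ng/mL and 1961 to 2219 CPM at 1295 ng/mL. At 250 and 750 ng/mL they summed to 2535 to 3068 and 2579 to 2995 CPM, above every 0 ng/mL library. The part of the intestine in the carotenoid genes was not tested.

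The remaining calls of the xanthophore and carotenoid list came at 1295 ng/mL. kcnj13, a potassium channel gene of the zebrafish stripe pattern, fell by 0.79 ± 0.17 (log2, SE; adjusted p = 0.00211, edgeR quasi-likelihood test). bco2b fell by 1.13 ± 0.34 (adjusted p = 0.0156), with overlapping groups and a call lost with limma-voom and without 0 ng/mL replicate 2 or 3 or 1295 ng/mL replicate 1. gpr143, of pigment organelles, rose by 0.64 ± 0.16 (adjusted p = 0.0061), a call lost with library totals alone (0.38).

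**Figure D4:**
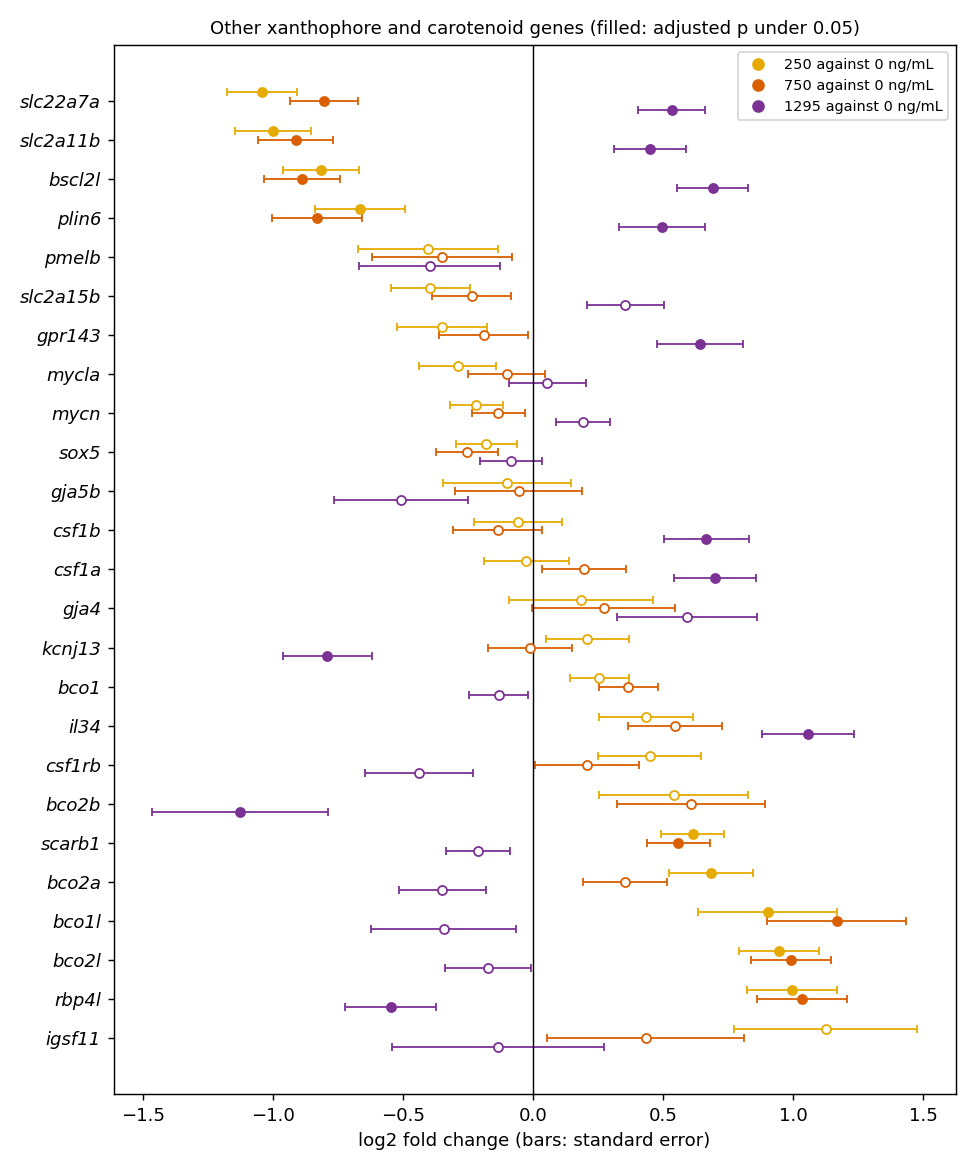
Log2 fold change against 0 ng/mL (points) with standard errors (bars) of 25 other xanthophore and carotenoid genes at 250, 750 and 1295 ng/mL; filled points have an adjusted p under 0.05 (edgeR quasi-likelihood test). slc22a7a, slc2a11b, bscl2l and plin6 lay below 0 at 250 and 750 ng/mL and above 0 at 1295 ng/mL, where all but bscl2l lost the call with library totals alone, while bco2l and rbp4l lay above 0 at the lower doses.

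Other pigment cells of the larva were measured in the same libraries. Of 20 melanophore genes, 0 were called higher and 4 lower at 250 ng/mL, 1 and 2 at 750 ng/mL, and 10 and 1 at 1295 ng/mL (6 and 3 with library totals alone). The shares over all tested genes with TMM were 6.03%, 4.20% and 18.8% higher and 4.48%, 2.14% and 22.2% lower. The summed melanophore level was 329.8 to 351.4 CPM at 0 ng/mL, 288.0 to 298.6 CPM at 250 ng/mL, 284.2 to 318.6 CPM at 750 ng/mL and 420.3 to 510.6 CPM at 1295 ng/mL. mchr1b was at 0 in at least 1 library. dct, an enzyme of melanin synthesis, had 21.8, 15.4 and 19.9 CPM at 0 ng/mL, 9.57, 12.1 and 9.57 CPM at 250 ng/mL, 11.1, 11.3 and 10.2 CPM at 750 ng/mL, and 30.3, 30.5 and 32.3 CPM at 1295 ng/mL. The treated libraries did not overlap the 0 ng/mL libraries. The log2 fold changes of dct were -0.87 ± 0.14 (SE, adjusted p = 0.000996), -0.81 ± 0.13 (adjusted p = 0.00231) and 0.70 ± 0.13 (adjusted p = 0.000649, edgeR quasi-likelihood test). tyrp1b, another melanin enzyme, was at -0.61 ± 0.11 (adjusted p = 0.00307), -0.49 ± 0.11 (adjusted p = 0.0152, lost without 0 ng/mL replicate 3 or 750 ng/mL replicate 2) and 0.61 ± 0.11 (adjusted p = 0.000598), and slc45a2, a melanosome transporter, rose by 0.98 ± 0.14 at 1295 ng/mL (adjusted p = 0.000103).

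Of 17 iridophore genes, those of the silvery guanine-bearing pigment cells, 2 were called higher and 4 lower at 250 ng/mL, 1 and 2 at 750 ng/mL, and 5 and 1 at 1295 ng/mL (3 and 4 with library totals alone). Beside them, 10.5%, 6.33% and 41.0% of all tested genes were called in either direction with TMM. Several iridophore genes are purine synthesis genes held by both lists, paics and prps1a among them. For prps1a the log2 fold changes were -0.50 ± 0.11 (SE, adjusted p = 0.00854), -0.50 ± 0.11 (adjusted p = 0.0109) and 0.69 ± 0.11 (adjusted p = 0.000209, edgeR quasi-likelihood test). apoda.1, an apolipoprotein D gene, rose by 0.67 ± 0.13 at 1295 ng/mL (adjusted p = 0.00085), and pnp4a, a defining iridophore marker, was not called, with 0.02 ± 0.13, 0.08 ± 0.13 and 0.27 ± 0.13. The summed iridophore level was 669.0 to 687.9 CPM at 0 ng/mL, 569.9 to 673.4 CPM at 250 ng/mL, 600.8 to 618.8 CPM at 750 ng/mL and 927.1 to 942.2 CPM at 1295 ng/mL, with no gene at 0. Much of its change lay in paics and prps1a. The paics mean was 132.9, 68.5, 72.6 and 288 CPM at 0, 250, 750 and 1295 ng/mL, and the prps1a mean was 77.7, 54.9, 54.8 and 125.2 CPM. The sum without the shared purine genes was not computed.

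Of 15 tested neural crest and pigment progenitor genes, 1 was called higher and 1 lower at 250 ng/mL, none at 750 ng/mL (edgeR), and 4 and 1 at 1295 ng/mL (2 and 3 with library totals alone). For this list and the epidermis and liver lists below, the shares of all tested genes called higher with TMM were 6.03%, 4.20% and 18.8%. Those called lower were 4.48%, 2.14% and 22.2%. twist1a rose by 0.81 ± 0.10 at 1295 ng/mL (log2, SE; adjusted p = 4.77e-05, edgeR quasi-likelihood test), twist1b by 0.57 ± 0.11 (adjusted p = 0.000979) and snai2 by 0.37 ± 0.09 (adjusted p = 0.003), the last lost with library totals alone. All 3 are transcription factor genes also expressed in mesenchyme. Of 19 epidermis genes, 2 were called higher and 1 lower at 250 ng/mL, 3 and 3 at 750 ng/mL, and 14 and 0 at 1295 ng/mL (10 and 2 with library totals alone). cldne, a claudin gene, rose by 0.92 ± 0.07 at 1295 ng/mL (adjusted p = 3.95e-06). Of 16 liver genes, 4 were called higher and 2 lower at 250 ng/mL, 4 and 1 at 750 ng/mL, and 10 and 0 at 1295 ng/mL (9 and 4 with library totals alone). fgb, a fibrinogen chain gene, rose by 1.17 ± 0.12 at 1295 ng/mL (adjusted p = 1.43e-05). Their summed level was 13040 to 14920 CPM at 1295 ng/mL and 7540 to 9122 CPM at 0 ng/mL. The part of these tissues in the levels of the 8 genes was not tested.

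Across libraries the 8 genes did not vary as one group. Over the 12 libraries, Pearson's r of log2 CPM was 0.99 for gch2 with aox5, 0.86 for gch2 with pts and 0.80 for csf1ra with pax7b, and it was -0.48 for gch2 with xdh and -0.60 for gch2 with pax7a. Within the 9 libraries at 0, 250 and 750 ng/mL it was 0.98, 0.78, 0.86, -0.76 and 0.06 for these pairs. The libraries share dose groups and scaling, and those at 750 ng/mL include replicate 3, which was low for csf1ra, pax7a and pax7b, so these values only describe the 12 libraries. No r was computed without 750 ng/mL replicate 3.

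**Figure D5:**
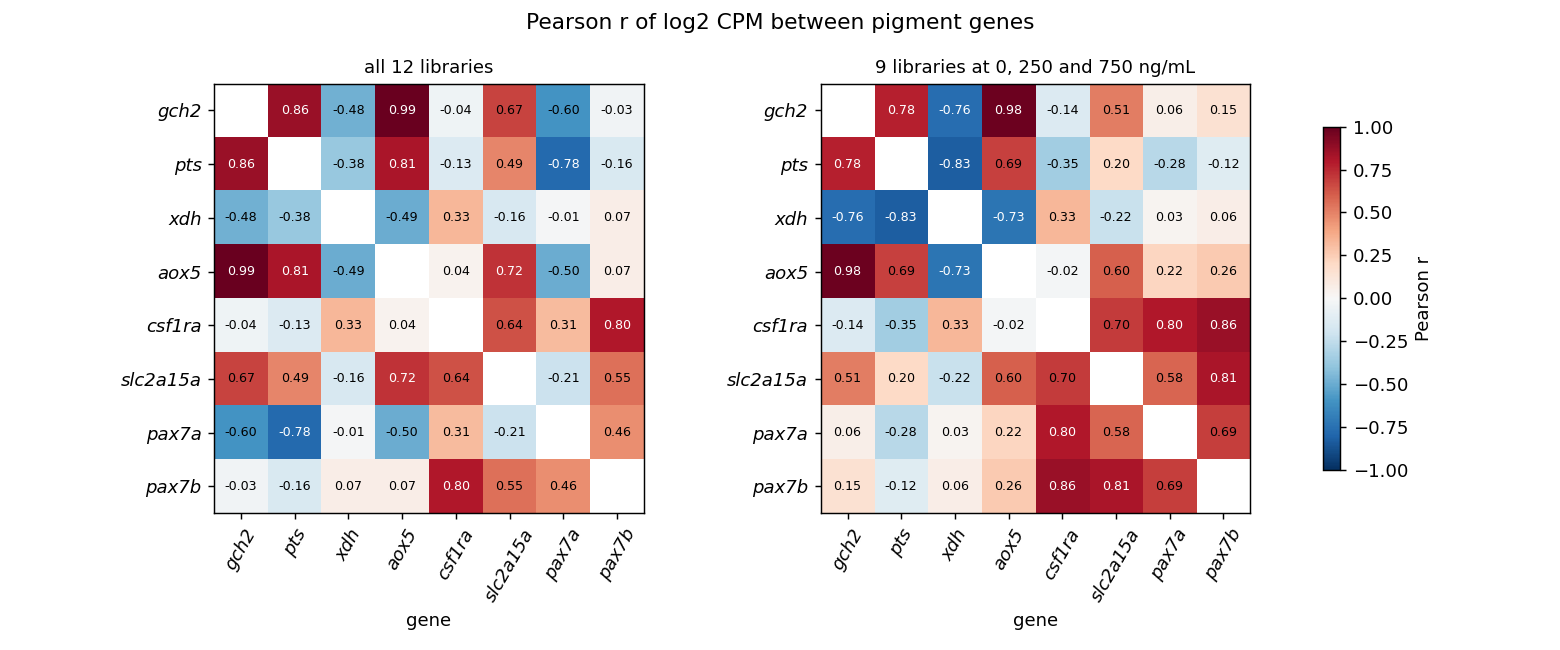
Pearson's r of log2 CPM between each pair of the 8 genes (cells, colour scale from -1 to 1) over all 12 libraries (left) and over the 9 libraries at 0, 250 and 750 ng/mL (right). gch2, aox5 and pts vary together in both panels. csf1ra with pax7b is 0.80 on the left and 0.86 on the right, and gch2 with pax7a is -0.60 on the left and 0.06 on the right. Both panels hold 750 ng/mL replicate 3, the lowest of the 12 libraries for csf1ra and for pax7b. As r without it was not computed, the panels do not show whether csf1ra and pax7b vary together in the other libraries.

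The genes most like each of the 8 were looked up by r over the 12 libraries. The search covered 16099 genes with a mean of at least 1 CPM and a curated symbol. Genes with clone or provisional names were left out, so a nearer gene among them would not appear. For gch2 they were slc2a11b (0.989), aox5 (0.988) and tbrg4 (0.987). For aox5 they were gch2, apoba (0.979) and tm9sf4 (0.977). For pts they were wls (0.982), prc1a (0.966) and uqcc1 (0.965). For xdh the nearest were ucp1 (0.885), lpl (0.878) and wdr45 (0.873), the lowest values of likeness among the 8 genes. tbrg4 had means of 32.7, 24.5, 24.3 and 36.7 CPM at 0, 250, 750 and 1295 ng/mL, and slc2a11b had means of 23.8, 11.9, 12.6 and 32.5 CPM, so the fold range of these genes was smaller than that of gch2.

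For csf1ra the nearest were itga2.2 (0.971), dock5 (0.947) and ddr2l (0.941), and for slc2a15a they were c1galt1b (0.952), rac1b (0.949) and msh3 (0.945). For pax7a they were pcdhb (0.980), draxin (0.974) and ajap1 (0.973), and for pax7b they were rgl2 (0.972), dennd1b (0.971) and coro6 (0.951). Replicate 3 at 750 ng/mL was the lowest of the 12 libraries for csf1ra, slc2a15a and pax7b, and likeness without it was not computed. At 750 ng/mL ddr2l had a mean of 28.3 ± 11.03 CPM (SD, n = 3) and rac1b one of 33.1 ± 10.9 CPM, with their lowest libraries at 15.5 and 20.5 CPM. ajap1 had 4.27 ± 0.848 CPM at 1295 ng/mL and 15.3 ± 3.14 CPM at 0 ng/mL, and draxin had 2.78 ± 0.183 CPM at 1295 ng/mL and 5.48 ± 0.674 CPM at 0 ng/mL (SD, n = 3 each).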

How the data were processed

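Messenger RNA was sequenced from 12 libraries, 3 at each of 4 doses; the labels' protocols name a stranded mRNA library kit. Trimmomatic, HISAT2 and HTSeq with genome build GRCz11 are listed in the submitters' processing notes; no versions, annotation or strand setting for counting are stated in what was used here. The authors deposited raw read counts per gene, with no sign of normalization in the values, and the counts in the 12 per-sample files equalled those in the table of the whole series. The 8 members, the gene lists and the alternatives were chosen with earlier results of these data known. The analysis used edgeR 4.0.16 in R 4.3.3. filterByExpr on dose group left 21581 genes, libraries were scaled by TMM, and 1 quasi-likelihood fit over all 12 libraries took dose group as its factor, leaving 8 residual degrees of freedom. Benjamini-Hochberg adjustment ran over all tested genes, with 0.05 as the threshold, and the prior count behind fold changes was 0.125. The SE of a log2 fold change was derived from the test, as its size divided by the square root of the F statistic. At a common dispersion of 0.0146 replicates varied by 12.1% (coefficient of variation), and counting error is smaller than that for counts above about 100. Correlations used log2 CPM with a prior count of 2.

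No library repeated another of its dose within sampling noise: chi-square per degree of freedom lay between 3.795 and 16.74 for all pairs. Alternatives were DESeq2 1.42.0, limma-voom (limma 3.58.1), other scalings and filters, a replicate block, only the compared groups, an adjusted p under 0.01 and leaving out each library. The fit was also run on simulated counts with the same spread for every gene and no shift in RNA composition. Those counts were unlike the data at 1295 ng/mL, so that run cannot speak to calls that depend on scaling. Outside the 8 members, the text names every called gene of the pterin and the xanthophore and carotenoid lists. It also names up to 3 genes with the smallest p at 1295 ng/mL from each other list. The 3 genes with a curated symbol most like each member are named as well. Genes outside this rule are named as such or serve as near copies or defining markers. Of the list genes, 11 were matched through older symbols and 10 were not found. A planned search of promoters for motifs was not run, since no promoter sequences of these genes were used here.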

Additional observations from a re-analysis of the deposited data

How the results depend on the processing

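Of 640 fold changes of the 8 genes under alternatives, 630 moved by less than the spread between replicates. Of 3180 fold changes of named genes, 3007 kept direction and side of the threshold, 109 lost the call and 22 gained one. Both tallies include fits without a library of a dose outside the comparison, which could move a fold change only a little. The number of genes called could change more, to 3051 at 250 ng/mL without 750 ng/mL replicate 3. The tallies are therefore no measure of robustness. With library totals alone xdh, csf1ra and slc2a15a changed sign at 1295 ng/mL. The genes called numbered 2269 at 250, 1367 at 750 and 8848 at 1295 ng/mL against 0 ng/mL, and 824, 547 and 5597 at an adjusted p under 0.01. With only the 2 compared groups 813 were called at 750 ng/mL, with 1 pterin enzyme in place of 2. Between 750 and 250 ng/mL DESeq2 called 5 genes, and fits without 1 library 0 to 1. Leaving out 1 library gave 1069 to 3051 genes at 250 ng/mL (1105 without 0 ng/mL replicate 1, 1069 without 250 ng/mL replicate 3) and 631 to 1568 at 750 ng/mL (631 without 0 ng/mL replicate 1, 885 without 750 ng/mL replicate 1, 837 without 750 ng/mL replicate 3). It gave 1 to 4 pterin enzymes at 250, 1 to 2 at 750 and 1 to 4 at 1295 ng/mL, 5 to 9 purine synthesis genes at 250 and 4 to 8 at 750 ng/mL, and 7 to 12 xanthophore and carotenoid genes at 1295 ng/mL. With RLE scaling, DESeq2 or a replicate block, 2 pterin enzymes were called at 1295 ng/mL in place of 1. With library totals alone the median of the 8 genes at 1295 ng/mL was -0.069 in place of 0.19. The median over all tested genes was -0.27 in place of -0.02. In that fit 7 purine synthesis genes were called in place of 11. That fit differs from the main one only in its scaling. What lay behind the lower TMM factors at 1295 ng/mL was not tested.

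Replicate numbers showed no clear pairing of the samples: over 15 pairs of groups and numbers the correlation of deviations lay between -0.211 and 0.135, with 1 over 0.1. With 3 libraries per dose and libraries reused across pairs, these values cannot exclude a modest shared effect. A replicate block gave 1940, 1275 and 8374 calls at the 3 doses. Depth limits pts most, at 30 counts in its lowest library.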
